A study of Mus musculus with 6 samples.

Results

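The genes described here encode the machinery that takes up glucose, breaks it down to pyruvate and lactate, and runs the pentose phosphate pathway. They were 36 genes chosen by symbol, with earlier results of these data known. All 36 averaged 1 FPKM or more (fragments scaled to transcript length and library size), as did 10393 of the 24394 symbols in the files. RNA came from bone marrow-derived macrophages (BMMs) of C57BL/6 mice at postnatal day 28, grown from marrow monocytes for 7 days in 50 ng/ml macrophage colony-stimulating factor. The comparison was between 3 control cultures and 3 cultures exposed for 24 h to cartilage fragments at 5 per macrophage, which came from the same mice as the marrow; both groups were otherwise handled alike. No label says whether the 3 cultures of a group came from different mice, so the p-values measure the spread between these cultures, which may be technical.

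Glycolysis converts 1 glucose to pyruvate in the cytosol, with hexokinase, phosphofructokinase and pyruvate kinase as its regulated steps, and lactate dehydrogenase turns pyruvate to lactate when it is not sent on to mitochondria by the pyruvate dehydrogenase complex. The pentose phosphate pathway branches off at glucose 6-phosphate and yields NADPH and ribose. Macrophages exposed to inflammatory ligands are known for raised glucose uptake and lactate release, and NADPH feeds their oxidant-generating enzymes.

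The deposited coverage values correspond to 699109 to 776253 estimated fragments per library, far fewer than the reads per sample that the methods of the study state, a gap that was not resolved here. On that estimate, members of the pathway had between 2 fragments (Slc16a1 in its lowest library) and 1479 fragments (Pkm in its highest). Control replicate 1 stood apart in its file: it had 0 transcripts with a status other than OK, against 770 to 795 in the other 5 libraries. In the others 142 to 160 transcripts above 20 FPKM lay outside their own listed bounds, against 0 in control replicate 1. The 8 macrophage markers summed to 29520 to 39241 FPKM in controls and 30119 to 40366 FPKM in stimulated libraries. The 11 chondrocyte markers summed to 1.54 to 4.22 FPKM in controls and 1.18 to 2.82 FPKM in stimulated libraries, and Col9a1, Matn1, Matn3, Hapln1, Chad and Col10a1 were at 0 in all 6. The 5 red cell markers and the 5 T and B cell markers were also at 0 in every library, while 8 neutrophil genes summed to 978 to 1081 FPKM in controls and 871 to 1228 FPKM in stimulated libraries. The 6 fibroblast and osteoblast genes summed to 156 to 171 FPKM in controls and to 105 to 121 FPKM in stimulated libraries, and their part in the results below was not tested. In these bulk samples a change in the number of cells of a type and a change in RNA per cell cannot be told apart.

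The 18 glycolysis genes from Slc2a1 to Pkm summed to 4268 ± 104 FPKM in controls and 4875 ± 105 FPKM with fragments (SD, n = 3), a ratio of the means of 1.14, and the groups did not overlap. Most of the difference lay in Aldoa and Gapdh, and the other 16 genes summed to 2060 ± 33.9 FPKM and 2197 ± 83.7 FPKM, a ratio of 1.07, also without overlap. The 4 lactate genes summed to 436 ± 16.9 FPKM and 548 ± 31.3 FPKM, a ratio of 1.26. The 7 pentose phosphate genes summed to 2056 ± 23.5 FPKM and 2108 ± 31.5 FPKM, a ratio of 1.02. The lactate and pentose phosphate sums did not overlap either. The pentose phosphate sums nearly met, at 2083 FPKM in control replicate 3 and 2086 FPKM in stimulated replicate 2. As shares of the FPKM of a library the pentose phosphate groups overlapped, at 0.334% to 0.349% in controls and 0.331% to 0.344% with fragments. Shares of the 16 glycolysis genes without Aldoa and Gapdh overlapped too, at 0.335% to 0.346% and 0.341% to 0.364%. All 36 genes held 1.13% to 1.14% of the FPKM of a control library and 1.21% to 1.24% of that of a stimulated library.

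No member passed an adjusted p of 0.05 in FPKM (limma, p adjusted over 10393 genes), where 0.308% of all tested genes were called higher and 0.0577% lower. The lowest adjusted p among the members was 0.087, for Aldoa, and 13 of 36 members (36.1%) had an unadjusted p under 0.05, against 9.19% of all tested genes. The log2 fold change was above 0 for 28 of 36 members (77.8%), against 50.5% of all tested genes. Its median was 0.13 over the members and 0.00 over all tested genes. For 12 members (33.3%) the groups were separate with the stimulated libraries on top, as for 9.04% of tested genes, and for 4 members (11.1%) the controls were on top, as for 6.89%. Without assembled lines these were 10 and 3 members, since Aldoc, Slc16a3 and Rpia then overlapped. Of the 36 members 13 had a mean of at least 100 FPKM, and 6 of these 13 (46.2%) had all stimulated libraries above all controls, against 158 of 720 tested genes of that level (21.9%). The median log2 fold change at that level was 0.13 for the members and 0.05 for all tested genes. A log2 fold change above 0 was found for 11 of the 13 members and for 59.2% of tested genes of that level. Because the members were chosen with earlier results of these data known, the shares here and below describe the list and do not test it.

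**Figure D1:**
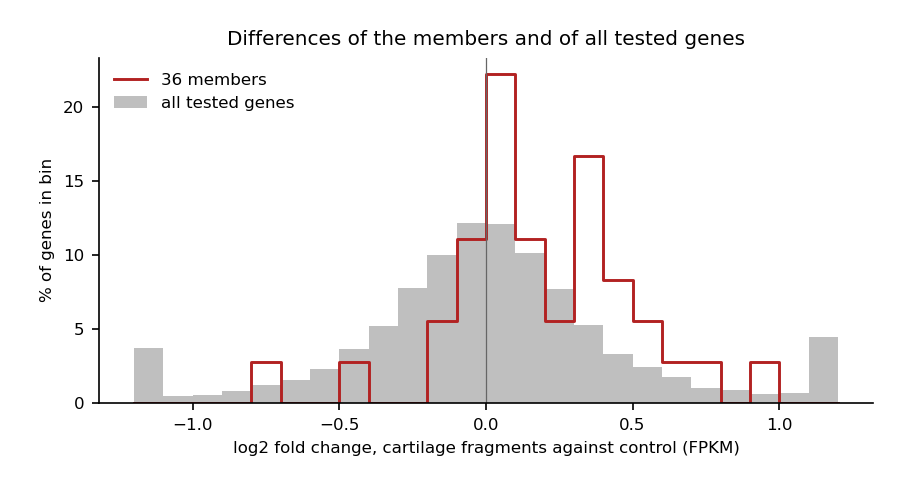
Percent of genes in each bin of log2 fold change (FPKM, cartilage fragments against control) for the 36 members (red line) and all tested genes (gray bars, with values beyond the ends placed in the end bins). The members have a median of 0.13 and all tested genes one of 0.00.

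The number of members called depended on the unit. When the fragments of a gene were estimated from the authors' coverage and divided by the library total, rather than taken as FPKM, 5 members rose in stimulated BMMs and none fell: Pfkl, Aldoa, Tpi1, Gapdh and Ldha. These were 13.9% of the members, where 1.38% of all tested genes were called higher and 0.76% lower in that unit. An unadjusted p under 0.05 (limma) was found for 14 members (38.9%), against 11.3% of all tested genes. At a mean of at least 100 FPKM these shares were 53.8% of members and 30.3% of tested genes. Of the 13 members of at least 100 FPKM 4 were called higher (30.8%), against 7.64% of tested genes of that level. The fold changes were nearly the same in both units, with a member median of 0.15 on the log2 scale in scaled fragments. Pfkl, Gapdh and Aldoa passed in scaled fragments with any 1 library left out, at an adjusted p of at most 0.00588, 0.0127 and 0.0392 (limma). Without control replicate 1 the members called in that unit were Pfkl, Aldoa, Aldoc and Gapdh.

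**Figure D2:**
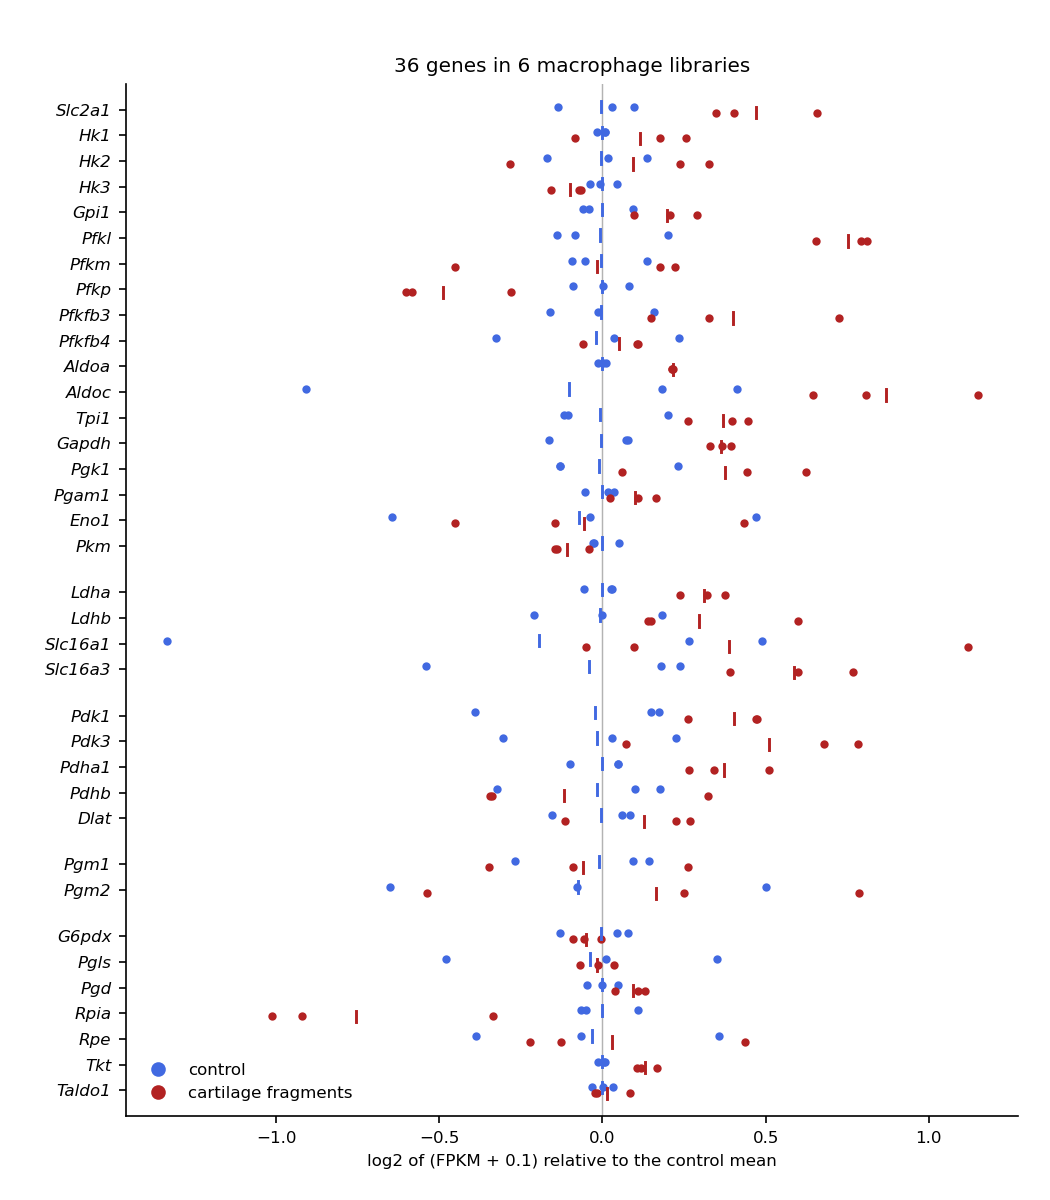
Each member in each library, as log2 of FPKM plus 0.1 relative to the control mean, for control (blue) and cartilage fragments (red) libraries, with a bar at each group mean; blank rows part glycolysis, lactate, pyruvate dehydrogenase, phosphoglucomutase and pentose phosphate genes. The red points of Pfkl, Aldoa, Tpi1, Gapdh and Ldha all lie to the right of the blue ones, and those of Pfkp and Rpia to the left.

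Glucose entry was considered first. Slc2a1, which encodes the basal glucose transporter GLUT1, had 38.4, 32.8 and 36.7 FPKM in control replicates 1 to 3 and 47.6, 56.8 and 45.8 FPKM in stimulated replicates 1 to 3; values below are in this order. All stimulated libraries were above all controls, at a log2 fold change of 0.47 (SE 0.14), which passed in neither unit (limma adjusted p = 0.325 in FPKM and 0.0949 in scaled fragments).

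The hexokinases, which trap glucose as glucose 6-phosphate, showed no call. Hk1 had 34.0, 33.5 and 34.0 FPKM in controls and 31.9, 38.2 and 40.4 FPKM with fragments. Hk2, the inducible form, had 16.9, 18.4 and 14.9 FPKM against 19.7, 13.7 and 21.0 FPKM. The groups overlapped for both genes. Hk3, the form typical of myeloid cells, was the most abundant, at 59.3, 60.6 and 62.8 FPKM in controls and 54.6, 57.9 and 58.2 FPKM with fragments, all below the controls with a log2 fold change of -0.10 (limma adjusted p = 0.817). Hk3 made up 54.6 ± 1.37% of the hexokinase FPKM in controls and 50.9 ± 2.07% with fragments, Hk1 30.4 ± 0.538% and 32.9 ± 2.51%, and Hk2 15.0 ± 1.55% and 16.2 ± 3.26% (SD, n = 3). The summed hexokinase level was 111 ± 1.11 FPKM in controls and 112 ± 6.92 FPKM with fragments. Gpi1, which interconverts glucose 6-phosphate and fructose 6-phosphate, had 231, 254 and 228 FPKM in controls and 255, 291 and 275 FPKM with fragments. Its log2 fold change was 0.20 (limma adjusted p = 0.516 in FPKM and 0.151 in scaled fragments). In FPKM the groups nearly met, at 254 FPKM in the highest control and 255 FPKM in the lowest stimulated library. In scaled fragments they overlapped.

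Phosphofructokinase, the committed step of glycolysis, included the member with the lowest adjusted p in scaled fragments. Pfkl (NM_008826, chr10:77986949-78009796 on mm10), the liver-type subunit, had 31.5, 32.7 and 39.9 FPKM in controls and 54.6, 60.2 and 60.9 FPKM with fragments. The lowest stimulated library was above the highest control, and the ratio of the means was 1.69. Pfkl had a log2 fold change of 0.76 (SE 0.14, limma adjusted p = 0.102) in FPKM and 0.76 (SE 0.12, limma adjusted p = 0.000196) in scaled fragments, from 276 estimated control fragments and 446 estimated stimulated ones. Pfkp, the platelet-type subunit, lay the other way, at 13.2, 14.0 and 12.4 FPKM in controls and 10.9, 8.79 and 8.68 FPKM with fragments, without overlap (log2 fold change -0.49, SE 0.19, limma adjusted p = 0.496 in FPKM and 0.331 in scaled fragments). Pfkm, the muscle-type subunit, had 3.98, 4.10 and 4.68 FPKM against 3.08, 4.83 and 4.98 FPKM on 6 to 9 estimated fragments per library, and the groups overlapped. Pfkl therefore made up 64.6%, 64.4% and 70.0% of the phosphofructokinase FPKM in controls and 79.7%, 81.5% and 81.7% with fragments, and Pfkp 27.2%, 27.5% and 21.8% against 15.8%, 11.9% and 11.6%. The sum over the 3 subunits was 52.2 ± 4.30 FPKM in controls and 72.3 ± 3.27 FPKM with fragments (SD, n = 3).

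**Figure D3:**
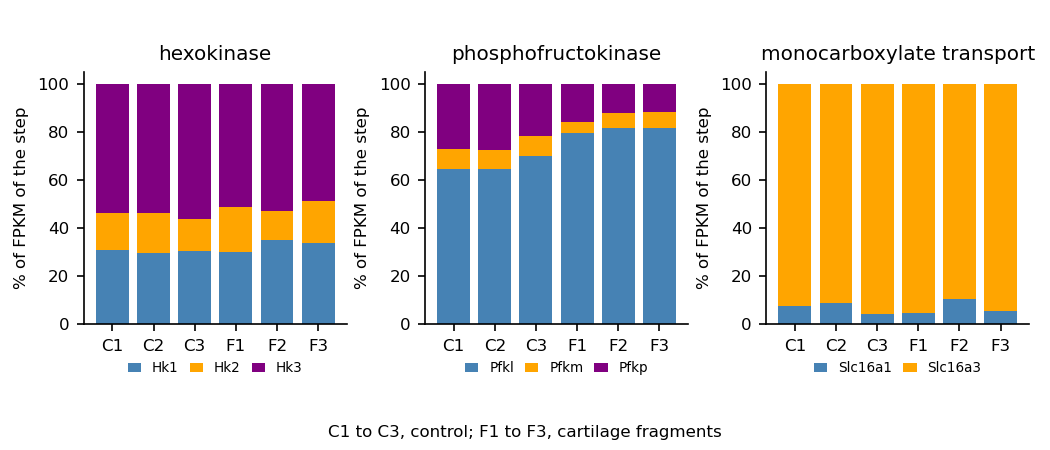
Share of the summed FPKM of a step held by each isozyme in each library, for hexokinase, phosphofructokinase and the monocarboxylate transporters (C1 to C3, control; F1 to F3, cartilage fragments). The share of Pfkl is 64.4% to 70.0% in controls and 79.7% to 81.7% with fragments, and Slc16a3 holds 89.7% to 96.0% of its step in all 6 libraries.

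Pfkfb3 and Pfkfb4 make fructose 2,6-bisphosphate, the allosteric activator of phosphofructokinase. Pfkfb3 had 14.5, 12.9 and 11.6 FPKM in controls and 14.4, 16.3 and 21.5 FPKM with fragments, with a log2 fold change of 0.41 (limma adjusted p = 0.607) and overlapping groups. Pfkfb4 ranged from 16.1 to 23.8 FPKM over all 6 libraries. In several libraries part of these values came from transcripts assembled in that library, as given below. Pfkfb3 held 39.5 ± 7.38% of the FPKM of the pair in controls and 45.1 ± 6.69% with fragments (SD, n = 3).

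Because Pfkl rose in scaled fragments, the 300 bases around its start in RefSeq (GRCm38.p6, chr10:78009758-78010057, minus strand, 250 bases before to 50 after the start) are shown, with matches to ACGTG or GCGTG on either strand in capitals. These letters are the core that the hypoxia-inducible factor HIF is known to bind.
Pfkl: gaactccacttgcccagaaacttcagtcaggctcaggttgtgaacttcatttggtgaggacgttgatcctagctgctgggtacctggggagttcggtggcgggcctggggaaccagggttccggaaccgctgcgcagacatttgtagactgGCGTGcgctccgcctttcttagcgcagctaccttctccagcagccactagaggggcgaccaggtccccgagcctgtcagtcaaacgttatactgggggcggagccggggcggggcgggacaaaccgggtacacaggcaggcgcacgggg

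The aldolases split fructose 1,6-bisphosphate. Aldoa (NM_007438, chr7:126795234-126799254) was the most abundant member, with 1262, 1281 and 1276 FPKM in controls and 1477, 1478 and 1477 FPKM with fragments. The spread within each group was small, and the log2 fold change was 0.21 (SE 0.04, limma adjusted p = 0.087) in FPKM and 0.19 (SE 0.04, limma adjusted p = 0.00429) in scaled fragments. Aldoc, the brain-type form, made up 0.889 ± 0.374% of the aldolase FPKM in controls and 1.41 ± 0.255% with fragments (SD, n = 3). It had 15.2, 13.0 and 6.04 FPKM against 17.9, 25.5 and 20.1 FPKM, without overlap, with a log2 fold change of 0.97 (SE 0.35, limma adjusted p = 0.423 in FPKM and 0.129 in scaled fragments). Without control replicate 3 the log2 fold change was 0.57. Stimulated replicate 3 had 11.3 FPKM without a line that Cufflinks assembled there, and the groups then overlapped, at a log2 fold change of 0.70.

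The files split Aldoa between 2 transcripts that differ in their first exon. NM_001177308, whose first exon lies upstream (chr7:126800288-126800447, exon 1), was listed at 0 in all 3 controls and at 328, 434 and 358 FPKM with fragments. NM_007438, with its first exon at chr7:126799045-126799254, was listed at 1262, 1281 and 1276 FPKM in controls and 1149, 1045 and 1118 FPKM with fragments. The upstream transcript thus took 22.2% to 29.3% of the FPKM of the pair in stimulated libraries. A value of 0 for a transcript is common in these files: of 1434 reference transcripts that share a gene with another at a mean of at least 5 FPKM, 990 (69%) had a 0 in 1 library or more. The pattern of Aldoa, 0 in every control and above 0 in every stimulated library, was found for 14 of the 1434, and the reverse for 12. The start regions of these transcripts in RefSeq (GRCm38.p6, chr7:126800398-126800697 for the upstream start and chr7:126799205-126799504 for the other, minus strand) are given for comparison, marked as before. The upstream window held 0 matches to ACGTG or GCGTG and the other 1. RefSeq lists a further start (chr7:126799129-126799428), whose window overlaps the latter and also held 1 match.
Aldoa, upstream start: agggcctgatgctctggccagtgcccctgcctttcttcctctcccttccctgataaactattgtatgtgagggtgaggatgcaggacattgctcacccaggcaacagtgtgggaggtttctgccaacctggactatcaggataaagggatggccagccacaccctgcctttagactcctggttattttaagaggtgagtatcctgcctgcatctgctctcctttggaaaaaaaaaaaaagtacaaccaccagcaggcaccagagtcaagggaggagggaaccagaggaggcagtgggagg
Aldoa, downstream start: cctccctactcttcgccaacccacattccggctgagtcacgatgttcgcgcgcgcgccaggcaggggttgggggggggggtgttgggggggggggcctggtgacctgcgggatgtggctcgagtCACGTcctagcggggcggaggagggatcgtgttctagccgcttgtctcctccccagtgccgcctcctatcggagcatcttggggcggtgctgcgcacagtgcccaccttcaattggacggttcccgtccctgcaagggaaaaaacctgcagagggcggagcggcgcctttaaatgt

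**Figure D4:**
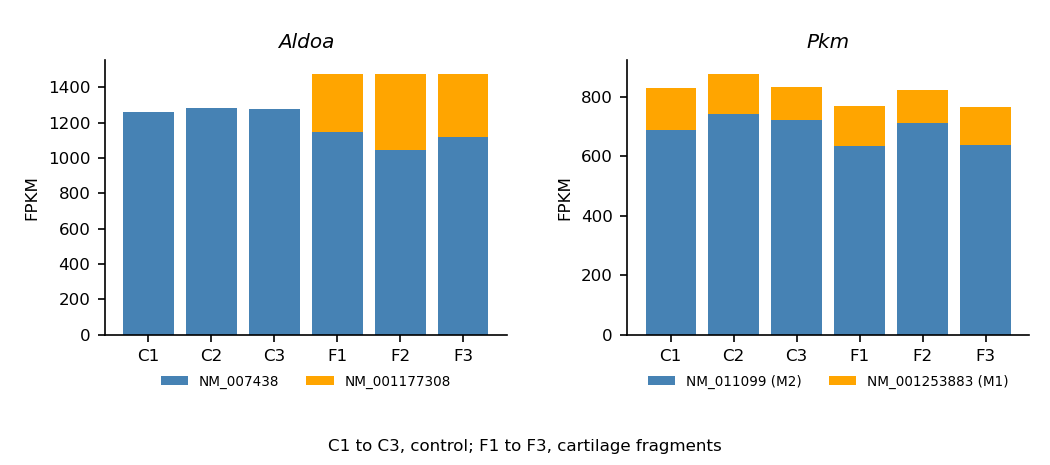
FPKM of the 2 listed transcripts of Aldoa and of Pkm in each library, stacked (C1 to C3, control; F1 to F3, cartilage fragments). NM_001177308 of Aldoa is at 0 in the 3 controls and between 328 and 434 FPKM with fragments, whereas both transcripts of Pkm are present in all 6 libraries.

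The triose phosphate steps followed the same direction. Tpi1 (NM_009415, chr6:124810592-124814296), which interconverts the triose phosphates, had 164, 165 and 204 FPKM in controls and 234, 242 and 213 FPKM with fragments. The groups did not overlap, with control replicate 3 close to stimulated replicate 3. The log2 fold change was 0.38 (SE 0.11, limma adjusted p = 0.281) in FPKM and 0.37 (SE 0.10, limma adjusted p = 0.0371) in scaled fragments. In scaled fragments Tpi1 passed in 2 of the 6 fits that left out 1 library. It was lost without control replicate 1 or 2 (adjusted p = 0.222 for each, limma) and without stimulated replicate 1 (0.176) or 2 (0.23).

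Gapdh (NM_001289726, chr6:125161852-125166467), which oxidizes glyceraldehyde 3-phosphate, had 983, 986 and 834 FPKM in controls and 1204, 1227 and 1173 FPKM with fragments. All stimulated libraries were above all controls, and the ratio of the means was 1.29. Gapdh had a log2 fold change of 0.37 (SE 0.07, limma adjusted p = 0.113) in FPKM and 0.36 (SE 0.06, 95% interval 0.24 to 0.48, limma adjusted p = 0.000521) in scaled fragments. Gapdh was the gene to which the qRT-PCR values of the study were normalized. Its values can be set beside other genes often used for that purpose, a list chosen after the values were seen. Actb rose in scaled fragments with a log2 fold change of 0.19 (limma adjusted p = 0.00596). B2m, Ppia and Rplp0 were also above every control in every stimulated library, with 95% intervals in scaled fragments of 0.06 to 0.23, 0.07 to 0.32 and 0.02 to 0.25, and none passed (limma adjusted p = 0.0613, 0.0943 and 0.324). The intervals were -0.25 to 0.40 for Hprt, -0.17 to 0.26 for Sdha, -0.20 to 0.19 for Ywhaz, -0.21 to 0.22 for Polr2a, -0.24 to 0.04 for Gusb, -0.20 to 0.07 for Rpl13a and -0.68 to 0.99 for Tbp, all of which held 0. Pgk1, the member on that list beside Gapdh, had an interval of 0.08 to 0.68 and did not pass (limma adjusted p = 0.271). For Eef1a1, at 3409 ± 46.8 FPKM in controls and 3502 ± 44.6 FPKM with fragments (SD, n = 3), the interval was -0.02 to 0.09. Its stimulated libraries were also all above the controls. The tabulated RefSeq start of Gapdh (GRCm38.p6, chr6:125165724-125166023, minus strand) is that of NM_008084, which was listed at 0 in every library, and not that of NM_001289726. Its window held 3 matches.
Gapdh: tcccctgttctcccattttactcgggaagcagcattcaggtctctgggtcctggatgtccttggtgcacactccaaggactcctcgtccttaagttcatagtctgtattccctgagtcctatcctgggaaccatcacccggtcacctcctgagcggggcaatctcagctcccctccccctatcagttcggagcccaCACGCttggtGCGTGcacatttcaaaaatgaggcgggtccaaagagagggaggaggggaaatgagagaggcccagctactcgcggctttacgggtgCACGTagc

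Lower glycolysis was mixed. Pgk1, which makes ATP from 1,3-bisphosphoglycerate, ranged from 115 to 148 FPKM in controls and 131 to 194 FPKM with fragments, with overlap (log2 fold change 0.39, limma adjusted p = 0.534). Pgam1, the mutase of the next step, was at 292 ± 9.55 FPKM and 313 ± 15.2 FPKM (SD, n = 3) with overlap. Eno1, the main enolase, had 187, 86.1 and 131 FPKM in controls and 98.3, 122 and 182 FPKM with fragments, and the spread within groups was far larger than the log2 fold change of 0.02. On the same locus (chr4:150237197-150248873) the files also list a copy of the Eno1b transcript, a retrogene product of near-identical sequence, at 251, 311 and 266 FPKM in controls and 436, 422 and 314 FPKM with fragments. Reads of the 2 cannot be told apart with certainty, so the lines were also summed, an alternative chosen after the values were seen. The sum was 438, 397 and 398 FPKM in controls and 534, 544 and 496 FPKM with fragments. The groups did not overlap, and the ratio of the means was 1.28. The log2 fold change of the sum was 0.35 (SE 0.07, limma adjusted p = 0.11) in FPKM and 0.34 (SE 0.06, limma adjusted p = 0.00178) in scaled fragments.

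**Figure D5:**
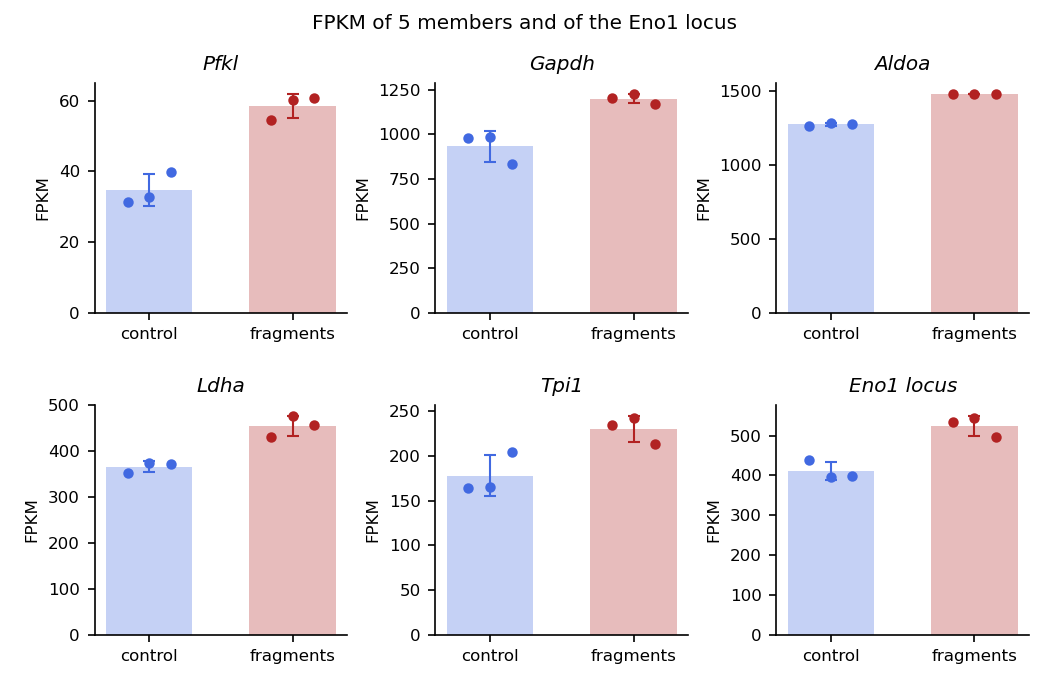
FPKM of Pfkl, Gapdh, Aldoa, Ldha, Tpi1 and of the Eno1 locus with its Eno1b line. Bars give the mean, error bars the SD (n = 3) and points the libraries of the control (blue) and cartilage fragments (red) groups; in each panel all stimulated libraries lie above all controls, with the highest ratio of the means for Pfkl, at 54.6 to 60.9 FPKM against 31.5 to 39.9 FPKM.

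Pkm, pyruvate kinase, did not share that direction. It had 831, 879 and 833 FPKM in controls and 770, 824 and 767 FPKM with fragments, all below the controls, with a log2 fold change of -0.11 (SE 0.05, limma adjusted p = 0.588 in FPKM and 0.254 in scaled fragments). Pkm is spliced with 1 of 2 mutually exclusive exons into the M1 or the M2 form of the enzyme, and M2 is the form that can switch to a less active state in activated and dividing cells. The exons of M1 (chr9:59675029-59675195, exon 9 of NM_001253883) and of M2 (chr9:59675568-59675734, exon 9 of NM_011099) lie on the plus strand and have 167 bases each. They differ at 64 bases, shown in capitals (GENCODE M21 transcripts, GRCm38), and these bases are what the division of reads between the 2 transcripts rests on.
Pkm M1 exon: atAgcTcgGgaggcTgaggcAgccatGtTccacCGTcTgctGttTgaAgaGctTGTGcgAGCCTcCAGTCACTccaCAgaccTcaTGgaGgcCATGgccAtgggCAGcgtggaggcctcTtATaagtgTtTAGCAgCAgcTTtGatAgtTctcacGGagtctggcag
Pkm M2 exon: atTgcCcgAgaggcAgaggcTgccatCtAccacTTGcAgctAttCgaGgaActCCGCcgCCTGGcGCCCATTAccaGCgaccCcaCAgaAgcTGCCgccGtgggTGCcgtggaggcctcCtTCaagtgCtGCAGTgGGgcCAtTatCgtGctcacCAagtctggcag

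NM_011099, the M2 form, was listed at 690, 744 and 721 FPKM in controls and 634, 712 and 639 FPKM with fragments. NM_001253883, the M1 form, was listed at 141, 135 and 112 FPKM against 136, 112 and 128 FPKM. M2 held 83.0% to 86.6% of the Pkm FPKM in controls and 82.3% to 86.4% with fragments, so the shares overlapped.

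Of the lactate genes 1 was called, in scaled fragments. Ldha (NM_010699, chr7:46845804-46855627), which converts pyruvate to lactate, had 352, 374 and 373 FPKM in controls and 431, 476 and 457 FPKM with fragments, without overlap. Its log2 fold change was 0.31 (SE 0.06, limma adjusted p = 0.123) in FPKM and 0.30 (SE 0.07, limma adjusted p = 0.00748) in scaled fragments. Without control replicate 1 the latter was 0.062, and without stimulated replicate 2 it was 0.092. Ldhb, the form that favors the reverse reaction, had 39.0, 51.2 and 45.1 FPKM in controls and 49.7, 68.4 and 50.1 FPKM with fragments, with overlap (log2 fold change 0.30, limma adjusted p = 0.65). Ldha held 89.1 ± 1.04% of the FPKM of the pair in controls and 89.1 ± 1.45% with fragments (SD, n = 3), so the composition was alike in both groups within that spread. The start region of the listed Ldha transcript in RefSeq (GRCm38.p6, chr7:46845554-46845853, plus strand) held 7 matches to ACGTG or GCGTG, counted on both strands, so that each CACGTG counts on either strand. A second RefSeq start (chr7:46846832-46847131) held 2 matches and is not shown.
Ldha: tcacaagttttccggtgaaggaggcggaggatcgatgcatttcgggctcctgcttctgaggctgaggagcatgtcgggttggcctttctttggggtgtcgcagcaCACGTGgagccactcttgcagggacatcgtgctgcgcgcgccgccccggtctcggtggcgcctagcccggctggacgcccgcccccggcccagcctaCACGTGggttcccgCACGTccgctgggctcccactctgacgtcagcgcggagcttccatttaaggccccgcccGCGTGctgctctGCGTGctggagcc

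Slc16a3, the transporter MCT4 that exports lactate from glycolytic cells, had 26.8, 25.7 and 15.6 FPKM in controls and 38.8, 34.5 and 29.8 FPKM with fragments. The groups did not overlap, and the log2 fold change of 0.63 (SE 0.24) passed in neither unit (limma adjusted p = 0.461 in FPKM and 0.143 in scaled fragments). Without control replicate 3 it was 0.38. Stimulated replicate 1 had 24.3 FPKM without an assembled line, which overlapped the controls, at a log2 fold change of 0.40. Slc16a1, the transporter MCT1, was at 0.643 to 2.53 FPKM in controls and 1.71 to 3.97 FPKM with fragments, on 2 to 12 estimated fragments. Slc16a3 made up 93.2 ± 2.56% of the FPKM of the pair in controls and 93.2 ± 3.08% with fragments (SD, n = 3).

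Genes at the entry of pyruvate into mitochondria gave no call. Pdk1, a kinase that inactivates pyruvate dehydrogenase, had 3.66, 5.36 and 5.46 FPKM in controls and 6.73, 6.74 and 5.80 FPKM with fragments, without overlap (log2 fold change 0.42, limma adjusted p = 0.681). The log2 fold change was 0.24 without control replicate 1. Pdk3, another such kinase, was at 2.98 to 4.35 FPKM and 3.90 to 6.45 FPKM, with overlap. Pdk1 held 56.3 ± 9.58% of the FPKM of the 2 kinases in controls and 54.5 ± 8.10% with fragments (SD, n = 3). Pdha1, the E1 alpha subunit of the complex, had 18.8, 18.8 and 17.0 FPKM in controls and 23.1, 21.9 and 26.0 FPKM with fragments, also without overlap (log2 fold change 0.37, SE 0.16, limma adjusted p = 0.534). The other subunits overlapped, Pdhb at 26.5 to 37.6 FPKM against 26.2 to 41.6 FPKM and Dlat at 7.81 to 9.23 FPKM against 8.04 to 10.5 FPKM.

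The phosphoglucomutase reaction links glucose 6-phosphate to glycogen. The symbols of the files follow older names, Pgm1 being NM_025700 on chromosome 5 and Pgm2 being NM_028132 on chromosome 4, which current RefSeq names the other way around. Pgm1 ranged from 13.2 to 17.6 FPKM in controls and 12.5 to 19.1 FPKM with fragments, and Pgm2 from 9.42 to 21.1 FPKM and 10.2 to 25.7 FPKM. Neither group pair was separate.

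The pentose phosphate genes gave no call. G6pdx, the rate-limiting dehydrogenase that yields NADPH, had 121, 140 and 137 FPKM in controls and 128, 125 and 133 FPKM with fragments, a log2 fold change of -0.05 (limma adjusted p = 0.906, 95% interval in scaled fragments -0.23 to 0.12). Of the other oxidative enzymes, Pgd, which makes ribulose 5-phosphate and NADPH, was at 570 ± 19.1 FPKM and 608 ± 20.1 FPKM (SD, n = 3), and Pgls, the lactonase, at 66.9 ± 18.7 FPKM and 66.2 ± 2.38 FPKM. Both overlapped between the groups. In the non-oxidative arm, Taldo1, transaldolase, was the second most abundant member by its control mean, at 1123 ± 24.5 FPKM and 1135 ± 47.4 FPKM, with overlap. Tkt, transketolase, had 132, 132 and 130 FPKM in controls and 147, 141 and 142 FPKM with fragments, without overlap (log2 fold change 0.13, limma adjusted p = 0.661). Rpia, the ribose 5-phosphate isomerase, lay the other way, at 15.8, 17.6 and 15.6 FPKM in controls and 8.58, 8.05 and 12.9 FPKM with fragments. The groups did not overlap, on 53 estimated fragments in controls and 33 in stimulated libraries (log2 fold change -0.75, SE 0.23, limma adjusted p = 0.321 in FPKM and 0.443 in scaled fragments). Of the 17.6 FPKM in control replicate 2, 13.0 came from an assembled line without a symbol. Without it that control had 4.65 FPKM, the groups overlapped and the log2 fold change was -0.12. Rpe, the epimerase, overlapped, at 12.3 to 20.7 FPKM and 13.8 to 21.9 FPKM.

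Part of the values of 10 members came from transcripts without a symbol that Cufflinks had assembled on their locus in single libraries. Summing only the lines that carry the symbol gave Hk1 20.6 FPKM in control replicate 1 and 0 in stimulated replicate 3, against 34.0 and 40.4 FPKM with the assembled lines. Taldo1 was 816 FPKM against 1147 FPKM in control replicate 1, and Pgm1 was 0 against 17.6 FPKM in control replicate 3. With the assembled lines these libraries came close to the others of their group. For the same reason the log2 fold change of Hk1 turned from 0.12 to -2.53 and that of Pgm1 from -0.05 to 2.44 without those lines. Of the members called in scaled fragments, Pfkl, Aldoa, Tpi1, Gapdh and Ldha had no assembled lines.

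Of 64 other genes of these pathways, 44 were expressed at a mean of at least 1 FPKM, and in FPKM none was called. Their median log2 fold change was 0.10 in FPKM, against 0.00 over all tested genes. In scaled fragments 1 of the 44 was called higher and 0 lower, where 1.38% of all tested genes were called higher and 0.76% lower. A count of 1 among 44 genes is close to that share. The 1 was Slc2a6, a further glucose transporter of the GLUT family, at 18.1, 13.9 and 28.9 FPKM in controls and 34.2, 38.4 and 44.8 FPKM with fragments (log2 fold change 1.00, limma adjusted p = 0.248 in FPKM and 0.00426 in scaled fragments). Without stimulated replicate 2 its adjusted p in scaled fragments was 0.0559 (limma). The transporter Slc2a3 was low, at 2.01 ± 0.916 FPKM in controls and 1.61 ± 0.158 FPKM with fragments (SD, n = 3). Bsg, the chaperone of the lactate carriers, was at 188 ± 8.71 FPKM and 194 ± 6.48 FPKM, and H6pd, the dehydrogenase of the endoplasmic reticulum, at 44.5 ± 5.92 FPKM and 46.1 ± 3.60 FPKM. All 3 overlapped between the groups.

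Among known regulators of glycolysis, Hif1a, the oxygen-regulated subunit of HIF, had 20.3, 20.1 and 23.4 FPKM in controls and 32.9, 32.7 and 31.9 FPKM with fragments. It rose in scaled fragments (log2 fold change 0.58, limma adjusted p = 0.0102) and did not pass in FPKM (0.61, limma adjusted p = 0.182). In scaled fragments it did not pass without control replicate 1 (adjusted p = 0.0548, limma), control replicate 2 (0.0643) or stimulated replicate 2 (0.0718). Txnip, which restrains glucose uptake, was at 121 ± 2.24 FPKM in controls and 111 ± 5.13 FPKM with fragments (SD, n = 3), with a log2 fold change of -0.12 (limma adjusted p = 0.716). Its stimulated libraries were all below the controls. Myc, Mlxip and Arnt overlapped between the groups.

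Letters of the HIF core were frequent in the promoters of these genes and of expressed genes in general. All 36 members had RefSeq windows, 50 in all, and 40 of the 50 (80%) held ACGTG or GCGTG on either strand. The share was 43.8% of all 32851 windows, which include those of genes not tested. Counted per gene, 32 of 36 members (88.9%) held either, against 68.5% of the 8382 tested genes with a window. A gene with more windows has more chances of a match, and the genes were not matched for this. For ACGTG alone the shares were 55.6% of members and 30.1% of tested genes, for GCGTG 66.7% and 56.9%, and for the E-box CACGTG, which contains ACGTG, 11.1% and 12.3%. Of the 5 members called in scaled fragments, Tpi1 held none of these letters in its window, while Dlat, Gpi1 and Rpe were the other members without ACGTG or GCGTG. The Tpi1 window was set on a start at chr6:124814158 (minus strand), downstream of the start of the measured NM_009415 at chr6:124814296. A match of letters is a description of the window and not a site in use.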

How the data were processed

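The authors used TopHat and Bowtie for alignment of paired reads of 100 bases to mm10 and Cufflinks for each library (versions not given in the sources used here). For its comparison the study names TMM normalization and Cuffdiff, with a q-value under 0.05. Neither was repeated here. Of the members the study lists Pfkl, Aldoc, Tpi1, Gapdh, Pgk1, Gpi1 and Ldha as upregulated, and it does not list Aldoa. The deposited FPKM are per transcript, beside a mean coverage and FPKM bounds. FPKM were summed per gene symbol, with unnamed assembled transcripts added where their Cufflinks gene held 1 symbol only. Fragments per gene were estimated as the authors' coverage times effective length over read length, and divided by the library total (scaled fragments). Of low values, 93.3% to 94.1% lay within 0.1 of a whole number. The effective length was set per library to make this share highest, so the share is no independent check of the estimate. Intervals cover the spread between libraries. Genes averaging 1 FPKM or more were compared on log2(FPKM + 0.1) with limma 3.58.1 (trend, robust) in R 4.3.3, two-sided; p was adjusted over those genes (Benjamini-Hochberg), and 0.05 was the threshold; fold changes of low genes are understated on that scale. An exact permutation test cannot go below 0.1 with 3 against 3. Tables and figures used Python 3.11.15, pandas 2.3.3, numpy 2.4.6 and matplotlib 3.10.9. The limma fits were tested on simulated data. Every member was accounted for; those called, not overlapping or at a regulated step are given per library. Members and lists were chosen with earlier results of these data known. Positions are mm10, with 1 added to starts. Alternatives changed the pseudocount, filter, scaling, unit, lines summed, moderation, replicate block and libraries used.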

Additional observations from a re-analysis of the deposited data

How the results depend on the processing

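In FPKM no member was called in the main fit or in any alternative in that unit. The unit mattered most. In scaled fragments 5 members were called higher (5 with a pseudocount of 1, 6 with the Eno1b line added to Eno1, and 3 to 6 with 1 library left out, fewest without stimulated replicate 2), 1 other pathway gene was called higher (1 with a pseudocount of 1, 0 to 2 with 1 library left out), and of all tested genes 143 were higher and 79 lower (170 and 94 with a pseudocount of 1; 92 to 131 and 42 to 73 with 1 library left out). In FPKM 32 tested genes were higher and 6 lower. With reference transcripts only 15 were higher, with no trend and no robust step 13, and with 1 library left out 8 to 27 were higher and 0 to 6 lower, fewest without stimulated replicate 1. With 1 library left out 0 to 0 members and 0 to 0 other pathway genes were called in FPKM. The labels do not say whether the replicate numbers pair the samples. Samples of the same number had correlations of -0.02, -0.00 and 0.01 between their deviations. These cannot decide the question, since deviations of genes with few fragments are largely sampling noise. With the replicate block 17 tested genes were higher and 1 lower in FPKM, and in scaled fragments 4 members (without Tpi1, adjusted p = 0.0765, limma) and 2 other pathway genes were higher. Fewer residual degrees of freedom are left with the block.

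The log2 fold change kept its sign in all 18 alternatives for 25 members (17 for Slc16a1 and Pdk3, which average under 5 FPKM) and changed it in at least 1 for 11, none of them called. With reference transcripts only it was -2.53 for Hk1 and 2.44 for Pgm1, and with quantile normalization -0.017 for Eno1, -0.017 for Pgls and -0.096 for Taldo1. With 1 library left out it ran from -0.019 to 0.286 for Hk2, -0.133 to 0.204 for Pfkm, -0.084 to 0.197 for Pfkfb4, -0.272 to 0.286 for Eno1, -0.325 to 0.0097 for Pdhb, -0.209 to 0.096 for Pgm1, -0.069 to 0.593 for Pgm2, -0.197 to 0.219 for Pgls, -0.143 to 0.255 for Rpe and -0.020 to 0.033 for Taldo1. The cause of these changes was not tested, apart from the missing assembled lines of Hk1 and Pgm1. The estimated fragments are few for some members, such as Pfkm, Slc16a1, Pdk3 and Rpia.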
